A study of Mus musculus with 10 samples.

Results

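Thymocytes deleted for both E2A and HEB (DKO, n = 3 mice) were compared with thymocytes deleted for HEB alone (HEBKO, n = 2 mice). By genotype the groups thus differed in the deletion of E2A, while HEB was deleted in each, by the same Cre. These 5 arrays were taken from the 10 of the study by the genotype in their titles, and all 13138 genes that passed an intensity filter were compared. CD4 and CD8 double-positive (DP) cells were sorted from the thymus of individual mice that were 8 weeks old, and total RNA of each mouse was hybridised to 1 Affymetrix array. HEBKO mice were HEBflox/flox Cd4-cre+, and DKO mice were E2Aflox/flox HEBflox/flox Cd4-cre+. The other 5 arrays were from wild-type Cd4-cre+ mice (WT, n = 3) and E2Aflox/flox Cd4-cre+ mice (E2AKO, n = 2), in which E2A was the only factor deleted. Every mouse, WT included, carried Cd4-cre, which recombines floxed alleles as thymocytes begin to express Cd4, so that the stages before are passed largely with the floxed genes intact. RNA or protein made before deletion can remain in such cells.

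E2A (gene Tcf3) and HEB (gene Tcf12) are basic helix-loop-helix transcription factors, or E proteins, which bind DNA as dimers with each other or with themselves at the E-box, CANNTG. Id proteins, which have no DNA-binding region, pair with E proteins and keep them from DNA. In the thymus E proteins act at the DP stage, in which cells rearrange the T cell receptor (TCR) alpha locus with the RAG recombinase and wait for a TCR signal before they become CD4 or CD8 single-positive cells.

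Signal is given as log2 intensity, on which 1 unit is 2-fold. A gene was called at a Benjamini-Hochberg adjusted p under 0.05 in limma over all genes tested, each difference is DKO minus HEBKO unless stated, and its error is the standard error of the fit. Median intensity ran from 92.6 to 95.6 in the 5 arrays. Across genes, log2 values correlated at 0.983 between the HEBKO arrays, 0.986 to 0.989 within DKO and 0.968 to 0.981 between the groups (genes are no replicates). By Xist and the Y-linked genes, HEBKO 1, DKO 1 and DKO 3 were female and HEBKO 2 and DKO 2 male. The HEBKO mean rests on 2 mice that differed in several of the gene groups below, so the arrays on which a call in DKO minus HEBKO depended are named beside it. Leaving out a HEBKO array leaves 1, which is then assumed to vary like the other groups.

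Of the 13138 genes tested, 477 (3.63%) were called, 282 (2.15%) higher and 195 (1.48%) lower in DKO. At least 2-fold differences were called for 129 genes (0.982%), of which 84 (0.639%) were higher and 45 (0.343%) lower. All arrays of one group lay beyond all arrays of the other for 4173 genes (31.8%), among them all 477 called. A lack of overlap given below for a called gene therefore adds nothing to its call. The median difference over all genes was 0.002. The number called fell to 193 without HEBKO 2 and to 230 without DKO 3, and without either array more genes were still called higher than lower (117 and 76 without HEBKO 2, 145 and 85 without DKO 3). Called lower genes numbered 113 without DKO 1. Counts of called members in the gene lists below are to be set against the 3.63% of all genes. A member that was not called can still lie above or below 0. Some genes stand in more than 1 list, so the lists are not separate results.

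The targeted transcripts were examined first. In the HEBKO mice Tcf3 read 10.02 and 10.06, and in DKO 1 to 3 it read 9.29, 8.93 and 8.94. The groups did not overlap, and Tcf3 was 1.99-fold lower in DKO (-0.99 ± 0.13, limma adjusted p = 0.00121). Tcf12, floxed in both groups, was 11.15 and 11.48 in HEBKO and 10.68, 10.73 and 10.71 in DKO (-0.61 ± 0.12, adjusted p = 0.0136). HEBKO 2 held the highest Tcf12 signal, and the call was lost without HEBKO 2 (-0.44) or without DKO 3 (-0.61). Residual signal cannot be set to intact RNA, since the deleted exons are not given here.

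Id3, an inhibitor of E proteins that is itself induced by TCR signals, was 8.66 and 7.48 in HEBKO and 6.49, 6.49 and 6.60 in DKO (-1.55 ± 0.26, adjusted p = 0.0068). It was lower in every DKO array, but its 2 HEBKO values lay far apart, and the difference was -0.96 without HEBKO 1. Id2, a related inhibitor, was 6.79 and 6.42 in HEBKO and 5.95, 5.97 and 5.93 in DKO (-0.65 ± 0.15, adjusted p = 0.036). All 3 DKO values of Id2 lay below the array's 40th percentile, the level used as the intensity filter. It was no longer called without any 1 DKO array (-0.65, -0.66 and -0.64 without DKO 1, 2 and 3), without HEBKO 1 (-0.47) or without WT 3 (-0.65). Tcf4, which encodes the third E protein, E2-2, differed by 0.16 ± 0.11 and Id1 by -0.10 ± 0.12, neither called. Of the 7 E and Id proteins tested, 4 were called lower (57.1%, against 3.63% of all genes), with a median of -0.61 and 6 below 0. The count was 3 without DKO 1 or without DKO 2, and 2 without DKO 3.

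The sequences just before the transcription start of a pair of genes that fell and 1 that rose are shown because E proteins act at E-boxes, and because these genes carry results below. They run from -200 to -1 of the RefSeq start (GRCm38.p6), 5′ to 3′ on the gene's own strand, with each CANNTG in capitals. Cd5 is on the minus strand at chr19:10738975-10739174, Rag1 on the minus strand at chr2:101649533-101649732 and Slfn5 on the plus strand at chr11:82951902-82952101.
Cd5: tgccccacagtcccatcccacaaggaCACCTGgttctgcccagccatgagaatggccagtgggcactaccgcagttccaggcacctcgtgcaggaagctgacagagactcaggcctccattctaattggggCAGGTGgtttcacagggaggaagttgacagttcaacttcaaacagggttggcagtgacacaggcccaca
Rag1: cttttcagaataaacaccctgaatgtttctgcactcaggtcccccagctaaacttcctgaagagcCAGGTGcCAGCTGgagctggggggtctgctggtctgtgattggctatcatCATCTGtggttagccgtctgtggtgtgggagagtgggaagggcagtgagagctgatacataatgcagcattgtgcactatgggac
Slfn5: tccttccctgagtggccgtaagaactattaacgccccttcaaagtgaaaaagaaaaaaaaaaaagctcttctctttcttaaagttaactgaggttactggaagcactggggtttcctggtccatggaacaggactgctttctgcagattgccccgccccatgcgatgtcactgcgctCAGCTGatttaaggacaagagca

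Cd5 held CACCTG at -174 and CAGGTG at -69, which are the same motif read on opposite strands. Rag1 held CAGGTG at -135, CAGCTG at -128 and CATCTG at -85, and Slfn5 held CAGCTG at -23. In windows of 300 bases, 250 before and 50 after the start, CANNTG, which reads the same on both strands, stood in 70.0% of 233 windows of genes called lower, 71.2% of 313 of genes called higher and 65.1% of 13111 of all tested genes. CAGCTG, which is also its own reverse complement, stood in 20.2%, 20.4% and 16.2%, and CAGGTG or CACCTG in 21.9%, 19.2% and 19.1%. Windows were matched by symbol for 157 of 195 genes called lower and 227 of 282 called higher. Plxnd1, Id3 and Nr4a1, which also fell, had 0 matches to CANNTG in these windows. A match is a stretch of letters and not a measured binding site.

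The RAG genes and part of the other recombination and DP-stage genes were lower in DKO. Rag1, the catalytic subunit of the RAG recombinase, was 12.98 and 13.53 in HEBKO and 11.87, 12.41 and 11.86 in DKO, a 2.31-fold fall (-1.21 ± 0.18, limma adjusted p = 0.00349). Rag2, its partner subunit, was 9.93 and 10.80 in HEBKO and 8.93, 9.33 and 8.47 in DKO (-1.46 ± 0.25, adjusted p = 0.00699). The groups did not overlap for either gene, HEBKO 2 was the highest array for both, and the call of Rag2 was lost without it (-1.02).

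Lig4, the DNA ligase that seals the broken ends, was 10.60 and 10.83 in HEBKO and 9.31, 9.54 and 9.37 in DKO (-1.31 ± 0.13, limma adjusted p = 0.000175). Dntt, which adds nucleotides at the joins, was 12.30 and 12.70 in HEBKO and 11.37, 11.90 and 11.62 in DKO (-0.87 ± 0.16, adjusted p = 0.00961). Iftap, a gene next to Rag2 that was named for the size of its change, was 9.12 and 9.11 in HEBKO and 7.89, 7.22 and 6.40 in DKO (-1.95 ± 0.34, adjusted p = 0.00808). DKO was lower in every array for all of these. Without HEBKO 2 the calls of Dntt (-0.67) and Iftap (-1.95) were lost. Among 15 V(D)J recombination and end-joining genes, 6 were called lower and 0 higher (40%, against 3.63% of all genes). The median was -0.17, and 7 of the 15 lay above 0. The other lower members, Xrcc6 (-0.66), the Ku70 subunit that binds broken ends, and Hmgb1 (-0.62), which assists RAG, lost their calls without DKO 1 (-0.61 and -0.52), DKO 3 (-0.60 and -0.65) or HEBKO 2 (-0.50 and -0.48). Without HEBKO 2 the list had 2 members called.

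Of the 23 DP-stage genes, 8 were called lower and 0 higher (34.8%, against 3.63% of all genes), with a median of -0.36 and 17 below 0. Rag1, Rag2 and Dntt are among the 8 and were also counted in the recombination list above. Cd4, the coreceptor, was 11.34 and 11.77 in HEBKO and 10.21, 10.64 and 10.20 in DKO, 2.31-fold lower (-1.21 ± 0.15, limma adjusted p = 0.00116), with no overlap. Cd8a and Cd8b1, which encode the other coreceptor, differed by -0.33 ± 0.11 (adjusted p = 0.134) and -0.16 ± 0.12 (adjusted p = 0.634). The sort was made on both CD4 and CD8. In bulk RNA, fewer cells of a kind and less RNA per cell cannot be told apart, and that applies to every result here.

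Plxnd1, a semaphorin receptor that guides thymocytes, fell 3.51-fold, from 9.76 and 10.12 to 8.05, 8.40 and 7.95 (-1.81 ± 0.14, limma adjusted p = 3.77e-05). Sema7a, which encodes a semaphorin, was 9.01 and 9.15 in HEBKO and 7.71, 7.72 and 7.45 in DKO (-1.45 ± 0.11, adjusted p = 3.19e-05). All DKO values lay below the HEBKO values for both genes. Arpp21 (-1.26 ± 0.20, adjusted p = 0.00451) and Ets2, a transcription factor of the ETS family (-1.30 ± 0.18, adjusted p = 0.00213), were lower in every DKO array too. Bcl6, a transcriptional repressor, fell by 0.90 ± 0.19 (adjusted p = 0.0227), a call lost without DKO 1 (-0.77), DKO 3 (-0.90) or HEBKO 2 (-0.59).

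The mir-181a-1 and mir-181b-1 hairpins, which make the miRNAs that raise the sensitivity of DP cells to TCR ligands, lie next to each other in the genome. The probe sets read hairpin or precursor RNA, and the mature forms are printed to show the seed they share, bases 2 to 8 in capitals.
miR-181a-5p: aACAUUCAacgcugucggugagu
miR-181b-5p: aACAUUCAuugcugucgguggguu
Mir181a-1 was 6.93 and 8.10 in HEBKO and 5.74, 6.60 and 5.97 in DKO (-1.41 ± 0.35, limma adjusted p = 0.0471), with 2 of the DKO values below the 40th percentile. Mir181b-1 differed by -1.20 ± 0.28 (adjusted p = 0.0372). HEBKO 2 was the highest array for Mir181a-1, and neither call held without DKO 1 (-1.23 and -0.94), DKO 3 (-1.35 and -1.28), HEBKO 2 (-0.83 and -0.78), WT 2 or WT 3 (-1.41 and -1.20 in each), nor that of Mir181a-1 without either E2AKO array (-1.41).

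Of 20 tested genes that TCR signals induce, 7 were called lower in DKO (35%, against 3.63% of all genes). Cd5, a surface receptor that damps TCR signals and whose level follows their strength, had the largest fall of all genes called. Cd5 was 10.77 and 9.98 in HEBKO and 8.05, 8.12 and 8.38 in DKO, a 4.56-fold fall (-2.19 ± 0.22, limma adjusted p = 0.000174). Cd6, a related receptor, was 10.36 and 10.13 in HEBKO and 8.77, 8.64 and 8.60 in DKO (-1.57 ± 0.12, adjusted p = 2.92e-05). Neither gene overlapped between the groups.

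Nr4a1, the nuclear receptor Nur77, was 10.35 and 9.12 in HEBKO and 7.98, 7.95 and 8.07 in DKO (-1.73 ± 0.27, limma adjusted p = 0.00422). Egr2, a zinc finger factor of the same early response, was 8.45 and 7.60 in HEBKO and 6.51, 6.74 and 7.07 in DKO (-1.25 ± 0.21, adjusted p = 0.00697). The DKO arrays were lower than both HEBKO arrays, among which HEBKO 1 was the higher one. Without HEBKO 1 these differences were -1.12 for Nr4a1 and -0.83 for Egr2, both still called. Cd69, an activation marker that holds cells in the thymus, was 9.10 and 8.53 in HEBKO and 6.85, 7.59 and 8.02 in DKO (-1.33 ± 0.29, adjusted p = 0.028), and its call was lost without DKO 2 (-1.38), HEBKO 1 (-1.05) or HEBKO 2 (-1.61).

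Egr1 differed by -1.11 ± 0.25 (limma adjusted p = 0.0298) and Tnfaip3, an inhibitor of NF-kappaB signalling, by -0.76 ± 0.16 (adjusted p = 0.0229). The call of Egr1 was lost without DKO 1 (-1.08), DKO 2 (-0.99), HEBKO 1 (-0.57) or WT 3 (-1.11), and that of Tnfaip3 without DKO 1 (-0.66), DKO 3 (-0.74) or HEBKO 2 (-0.53). The 7 genes of this list that were called lower include Id3, 0 were called higher and 13 were not called. The median was -0.50, with 5 genes above 0. As a difference from the WT mean, the list's median stood at 0.03 in HEBKO 1, -0.24 in HEBKO 2, and -0.75, -0.76 and -0.70 in the DKO arrays. HEBKO 1 exceeded HEBKO 2 in 17 of the 20 genes, by a median of 0.33.

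Of 21 genes of the TCR complex and proximal signalling, 19% were called, against 3.63% of all genes, and 14 lay above 0. Cd6 was the 1 called lower. Fyn (0.53), a kinase of the first step, Prkcq (0.59), the protein kinase C theta, and Ptpn22 (0.59), a phosphatase, were called higher. The list's median was 0.13. These 3 rises did not hold over the arrays: 0 of the list's members were called higher without DKO 3 (0.46 for Fyn, 0.51 for Prkcq and 0.56 for Ptpn22) or without HEBKO 2 (0.36, 0.49 and 0.71). Fyn was also lost without DKO 1 (0.57), DKO 2 (0.57), WT 3 or either E2AKO array (0.53 in each), and Ptpn22 without DKO 2 (0.58) or HEBKO 1 (0.47).

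**Figure D1:**
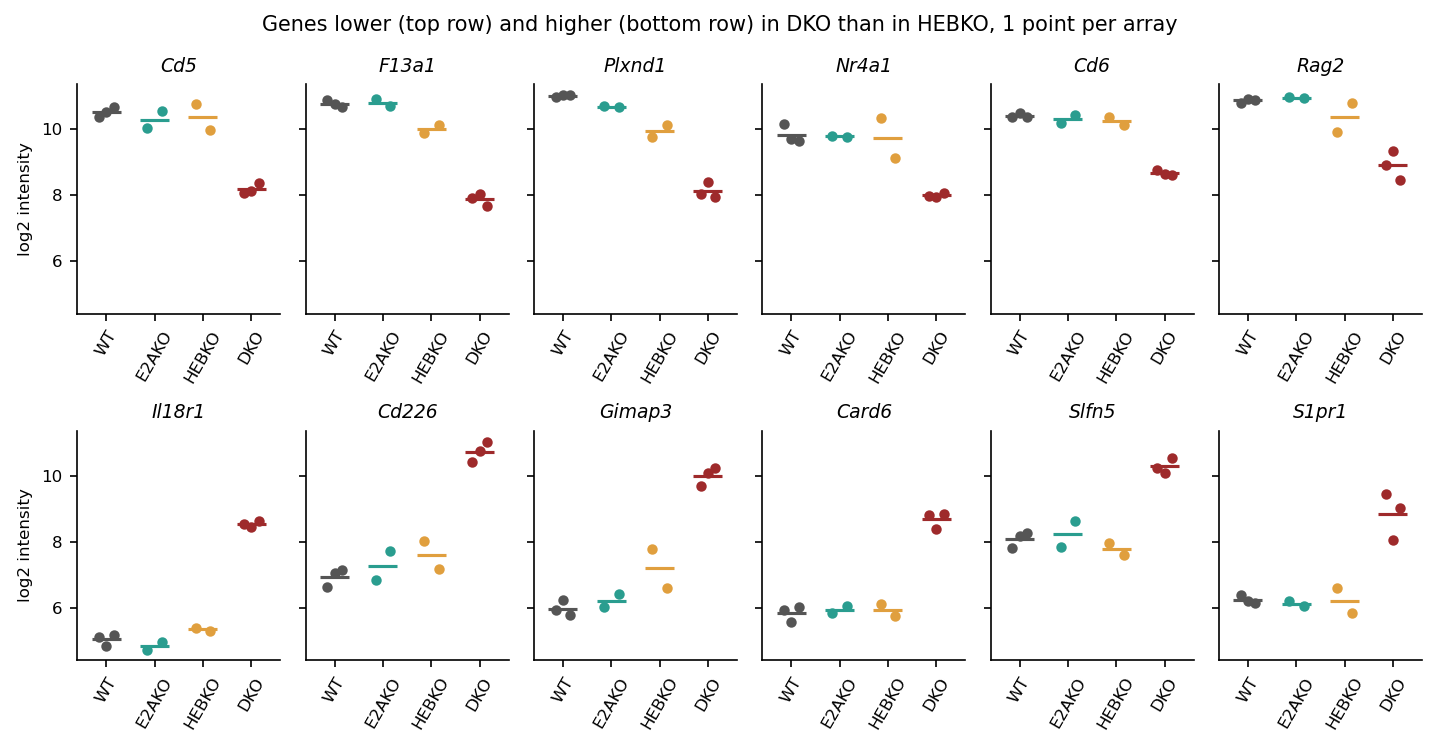
Log2 intensity of 12 genes in each array, with 1 point per mouse and a bar at the genotype's mean (WT n = 3, E2AKO n = 2, HEBKO n = 2, DKO n = 3). In the top row (Cd5, F13a1, Plxnd1, Nr4a1, Cd6, Rag2) every DKO point lies below both HEBKO points, and in the bottom row (Il18r1, Cd226, Gimap3, Card6, Slfn5, S1pr1) every DKO point lies above them. The genes were picked from those called without overlap of the arrays, so this separation follows from the choice.

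Most survival and death genes were not called, though 22.2% of those tested were, against 3.63% of all genes. Bcl2l1, which encodes Bcl-xL and extends the life of DP cells, was 9.76 and 10.08 in HEBKO and 8.88, 9.09 and 8.92 in DKO (-0.96 ± 0.12, limma adjusted p = 0.00101). The groups lay apart, and this call held in every alternative run. Bcl2, whose level rises as cells mature, was 8.41 and 7.72 in HEBKO and 6.90, 6.99 and 7.39 in DKO (-0.97 ± 0.20, adjusted p = 0.0218), and its call was lost without DKO 1 (-0.87), DKO 2 (-0.91) or HEBKO 1 (-0.62). Mcl1, another survival factor, differed by 0.01 ± 0.11 (adjusted p = 0.98). The pro-death members Bcl2l11 (Bim, -0.59 ± 0.14, adjusted p = 0.0457) and Bid (-0.58 ± 0.13, adjusted p = 0.0313) also fell, but Bcl2l11 lost its call without any 1 of the 5 arrays (-0.44 to -0.67), without either E2AKO array or without WT 3 (-0.59). Bid lost it without DKO 2 (-0.58), DKO 3 (-0.47), HEBKO 1 (-0.62), HEBKO 2 (-0.54) or WT 3 (-0.58). Of the 18 Bcl-2 family and apoptosis genes 4 were called lower and 0 higher, with a median of -0.07 and 8 above 0. The count was 3 without DKO 1, 1 without DKO 2 and 2 without DKO 3.

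Several large falls belonged to none of these groups. F13a1, the A subunit of coagulation factor XIII, was 9.88 and 10.13 in HEBKO and 7.92, 8.03 and 7.66 in DKO, 4.38-fold lower (-2.13 ± 0.14, limma adjusted p = 1.27e-05). Slc7a11, the cystine transporter, was 8.68 and 8.95 in HEBKO and 6.07, 7.58 and 6.63 in DKO (-2.05 ± 0.34, adjusted p = 0.00561). Dhrs3, a retinaldehyde reductase, was 9.32 and 10.61 in HEBKO and 7.69, 8.64 and 8.06 in DKO (-1.83 ± 0.32, adjusted p = 0.00787). F13a1 was even within each group, whereas the other pair varied over more than 1 unit within DKO or HEBKO and lost their calls without HEBKO 2 (-1.91 for Slc7a11, -1.19 for Dhrs3). Slc7a11 was the 1 gene called of 20 genes of serine, folate and cystine metabolism (5%, against 3.63% of all genes), a list with a median of -0.10. Dgke, a diacylglycerol kinase, fell by 1.35 ± 0.23 and overlaps its antisense gene Dgkeos (-1.46), and both calls were lost without HEBKO 2 (-0.92 and -0.88), that of Dgkeos also without DKO 1 (-1.31) or DKO 3 (-1.34).

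Of 20 tested genes of mature single-positive T cells, 13 were called higher in DKO and 1 lower (70%, against 3.63% of all genes). The median was 1.30, with 18 genes above 0. Il7r, Gimap3, Gimap7, Runx3, Foxo1, Slfn1 and Slfn2 of this list are counted again in lists below. The count called higher was 11 to 14 with 1 array of the 5 left out. S1pr1, the sphingosine-1-phosphate receptor that lets mature cells leave the thymus, was 6.60 and 5.83 in HEBKO and 9.45, 8.04 and 9.03 in DKO, a 6.17-fold rise (2.63 ± 0.33, limma adjusted p = 0.000993). Ccr7, the chemokine receptor that draws cells to the medulla, was 8.17 and 7.25 in HEBKO and 10.12, 10.03 and 10.32 in DKO (2.44 ± 0.21, adjusted p = 8.03e-05). Il7r, the interleukin 7 receptor, which DP cells normally switch off, was 6.90 and 5.64 in HEBKO and 8.55, 8.55 and 9.12 in DKO (2.47 ± 0.34, adjusted p = 0.0021). All DKO arrays exceeded both HEBKO arrays for these genes, and HEBKO 1 exceeded HEBKO 2. In HEBKO 2, S1pr1 and Il7r lay below the array's 40th percentile, near background, so their folds depend on that floor.

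Ms4a4b, a tetraspan membrane protein of mature T cells, was 7.77 and 6.36 in HEBKO and 9.77, 9.35 and 10.27 in DKO (2.73 ± 0.35, limma adjusted p = 0.00116). Gimap3, a GTPase of the family that supports T cell survival, was 7.79 and 6.60 in HEBKO and 9.67, 10.09 and 10.23 in DKO (2.80 ± 0.29, adjusted p = 0.000231). Both were higher in every DKO array, though their HEBKO values were over 1 unit apart. Itgb7, an integrin subunit, rose by 1.38 ± 0.20 (adjusted p = 0.00304). Of the 8 Gimap genes tested, 3 were called higher and 0 lower (37.5%, against 3.63% of all genes). The median was 0.65, and all 8 lay above 0. However, Gimap7 (0.91) lost its call without HEBKO 2 (0.69) and Gimap8 (0.86) without DKO 2 (0.87), DKO 3 (0.74), HEBKO 1 (0.85) or HEBKO 2 (0.87). Gimap3 was then the 1 gene called of the list without HEBKO 2. The Gimap and Ms4a families hold near-identical genes, which array probes may not separate fully.

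As a difference from the WT mean, the median of the mature list stood at 0.44 in HEBKO 1, -0.10 in HEBKO 2, and 1.72, 1.42 and 1.76 in the DKO arrays. HEBKO 1 was above HEBKO 2 in 17 of the 20 genes, by a median of 0.51, while it was above HEBKO 2 in 6 of 23 DP-stage genes, with a median of -0.29. The DKO arrays lay above both HEBKO arrays. Gata3, a transcription factor of the CD4 lineage in the same list, fell by 0.72 ± 0.15 (limma adjusted p = 0.0231), a call lost without DKO 1 (-0.73), DKO 2 (-0.65) or HEBKO 1 (-0.43).

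**Figure D2:**
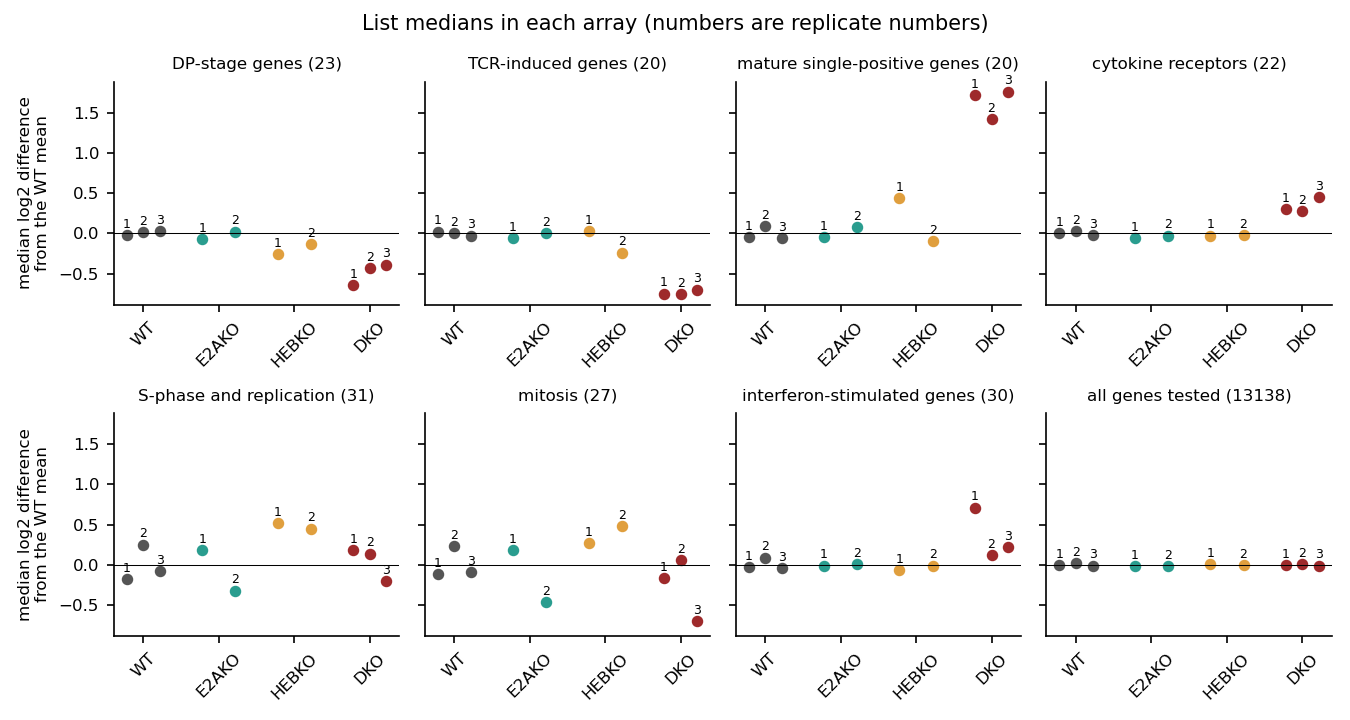
Median log2 difference from the WT mean over the tested members of 7 gene lists and over all 13138 genes, for each array, with the replicate number beside each point and the number of genes in each title. For mature single-positive genes the DKO arrays lie at 1.72, 1.42 and 1.76 and HEBKO at 0.44 and -0.10, whereas the medians of all genes lie between -0.02 and 0.02.

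Among 25 T-lineage transcription factors 5 were called higher and 5 lower (40%, against 3.63% of all genes), with a median of -0.11 and 9 above 0. Runx3, which directs the CD8 lineage, was 8.07 and 7.07 in HEBKO and 9.43, 9.04 and 9.65 in DKO (1.80 ± 0.25, limma adjusted p = 0.00201). Foxo1, an activator of Il7r and Ccr7, was 8.86 and 8.29 in HEBKO and 9.95, 9.77 and 10.25 in DKO (1.42 ± 0.21, adjusted p = 0.00304). The groups did not overlap for either. Klf2, an activator of S1pr1 from the mature list, differed by 0.54 ± 0.19 and was not called (adjusted p = 0.173). Rora, an orphan nuclear receptor, was 6.61 and 6.42 in HEBKO and 7.84, 8.00 and 9.14 in DKO (1.81 ± 0.30, adjusted p = 0.00561), Foxp1 rose by 0.82 ± 0.13 and Zbtb16, the factor of NKT cells, by 0.70 ± 0.15. Without HEBKO 2 the calls of Rora (1.71), Foxp1 (0.65) and Zbtb16 (0.51) were lost, which left 2 called higher, and Zbtb16 was lost without DKO 3 (0.56) too.

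The factors called lower were Ets2, Myb, Gata3, Gfi1 and Nfatc3. Myb, needed for the survival of DP cells, was 11.34 and 11.61 in HEBKO, a mean of 11.47, and 10.32, 10.62 and 10.47 in DKO, a mean of 10.47 (SE of the difference 0.12, limma adjusted p = 0.000931), without overlap. Gfi1, a repressor, fell by 0.69 ± 0.11 and lost its call without HEBKO 2 (-0.66), and Nfatc3 fell by 0.58 ± 0.13 and lost it without DKO 1 (-0.62), DKO 2 (-0.62), DKO 3 (-0.50) or HEBKO 2 (-0.38). Without DKO 1 or without DKO 2, 3 factors were called lower. Bcl11b, which keeps T cell identity, differed by -0.20 ± 0.12 and was not called.

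Of 22 cytokine receptors, 8 were called higher and 1 lower (40.9%, against 3.63% of all genes), with a median of 0.43 and 18 above 0. Il18r1, the binding subunit of the interleukin 18 receptor, had the largest called rise of all tested genes: it was 5.39 and 5.30 in HEBKO and 8.54, 8.45 and 8.64 in DKO, a 9.17-fold difference (3.20 ± 0.12, limma adjusted p = 1.52e-07). Il18rap, the signalling subunit of the same receptor and its neighbour in the genome, was 4.93 and 4.77 in HEBKO and 6.48, 6.55 and 6.93 in DKO (1.80 ± 0.16, adjusted p = 8.8e-05). All HEBKO values of both genes lay below the 40th percentile, where signal is near background, so the fold depends on that floor. Il12rb2, a subunit of the interleukin 12 receptor, was 7.85 and 7.24 in HEBKO and 9.13, 9.01 and 9.39 in DKO (1.63 ± 0.21, adjusted p = 0.00114).

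Il2ra, the alpha chain of the interleukin 2 receptor, was 6.21 and 6.10 in HEBKO and 8.80, 7.96 and 8.87 in DKO, 5.25-fold higher (2.39 ± 0.22, limma adjusted p = 0.000101). Its HEBKO values lay just above the 40th percentile (6.07 in HEBKO 1 and 6.03 in HEBKO 2), so this fold depends on that floor as well. Tgfbr2 (0.89 ± 0.15), Ifngr2 (0.55 ± 0.11) and Il27ra (0.47 ± 0.11) rose less. Il4ra, the interleukin 4 receptor, fell by 0.69 ± 0.15 (adjusted p = 0.0248). Without HEBKO 2, 5 receptors were called higher, as Tgfbr2 (0.64), Ifngr2 (0.55) and Il27ra (0.37) were lost. Ifngr2 was also lost without DKO 3 (0.48) or HEBKO 1 (0.55), and Il27ra without DKO 1 (0.42), DKO 3 (0.46) or WT 3 (0.47). In the same way the call of Il4ra was lost without DKO 1 (-0.54), DKO 3 (-0.74) or HEBKO 2 (-0.56). Of 15 JAK, STAT and SOCS genes, Jak1, a kinase that several of these receptors use, was the 1 called (0.57 ± 0.10, adjusted p = 0.00729). That was 6.67% of the list, against 3.63% of all genes, and the call was lost without HEBKO 2 (0.48).

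Il2ra also marks CD4-negative CD8-negative (DN) thymocytes. With Dtx1, a Notch target, it made up the 2 called of 10 DN markers (20%, against 3.63% of all genes). Dtx1 was 7.44 and 7.21 in HEBKO and 9.11, 8.58 and 8.64 in DKO (1.45 ± 0.16, limma adjusted p = 0.00039). The other 8 DN markers were not called. The summed level of the 13 on the array, those too dim to be tested included, was 10.42 to 10.58 in HEBKO and 10.79 to 11.10 in DKO (log2). Ptcra, the pre-TCR alpha chain of the DN stage, differed by 0.07 ± 0.15 and Notch1 by -0.04 ± 0.16, neither called. Of 15 pre-TCR and Notch genes, Il2ra, Dtx1 and Lfng (0.88), a modifier of Notch receptors, were called higher and 0 lower. These were 20% of the list, against 3.63% of all genes, and its median was 0.01, with 8 genes above 0. Lfng (adjusted p = 0.0465) lost its call without DKO 1 (0.67), DKO 3 (0.91), HEBKO 2 (0.59) or any of the WT and E2AKO arrays (0.88 in each).

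Cd226, an adhesion receptor of cytotoxic and NK cells, was 8.01 and 7.18 in HEBKO and 10.42, 10.75 and 11.01 in DKO, 8.78-fold higher (3.13 ± 0.29, limma adjusted p = 0.000101). Nkg7, a granule protein, rose by 1.48 ± 0.28 (adjusted p = 0.0123) and Ctsw, a protease of cytotoxic cells, by 1.15 ± 0.22 (adjusted p = 0.0134). Gzma, a granule protease, fell by 1.05 ± 0.25 (adjusted p = 0.0437). Of 11 NKT, innate-like and cytotoxic genes 4 were called higher and 1 lower (45.5%, against 3.63% of all genes). The list's median was 0.31, with 9 genes above 0. Without HEBKO 2, Cd226 was the 1 called higher (Nkg7 1.03, Ctsw 0.79, Zbtb16 0.51), and without DKO 3, 2 were (Ctsw 1.02, Zbtb16 0.56). Gzma was lost without DKO 2 (-0.95), DKO 3 (-0.91), HEBKO 1 (-0.73), WT 3 or either E2AKO array (-1.05 in each), and it was the 1 called of 3 markers of gamma-delta T and NK cells.

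**Figure D3:**
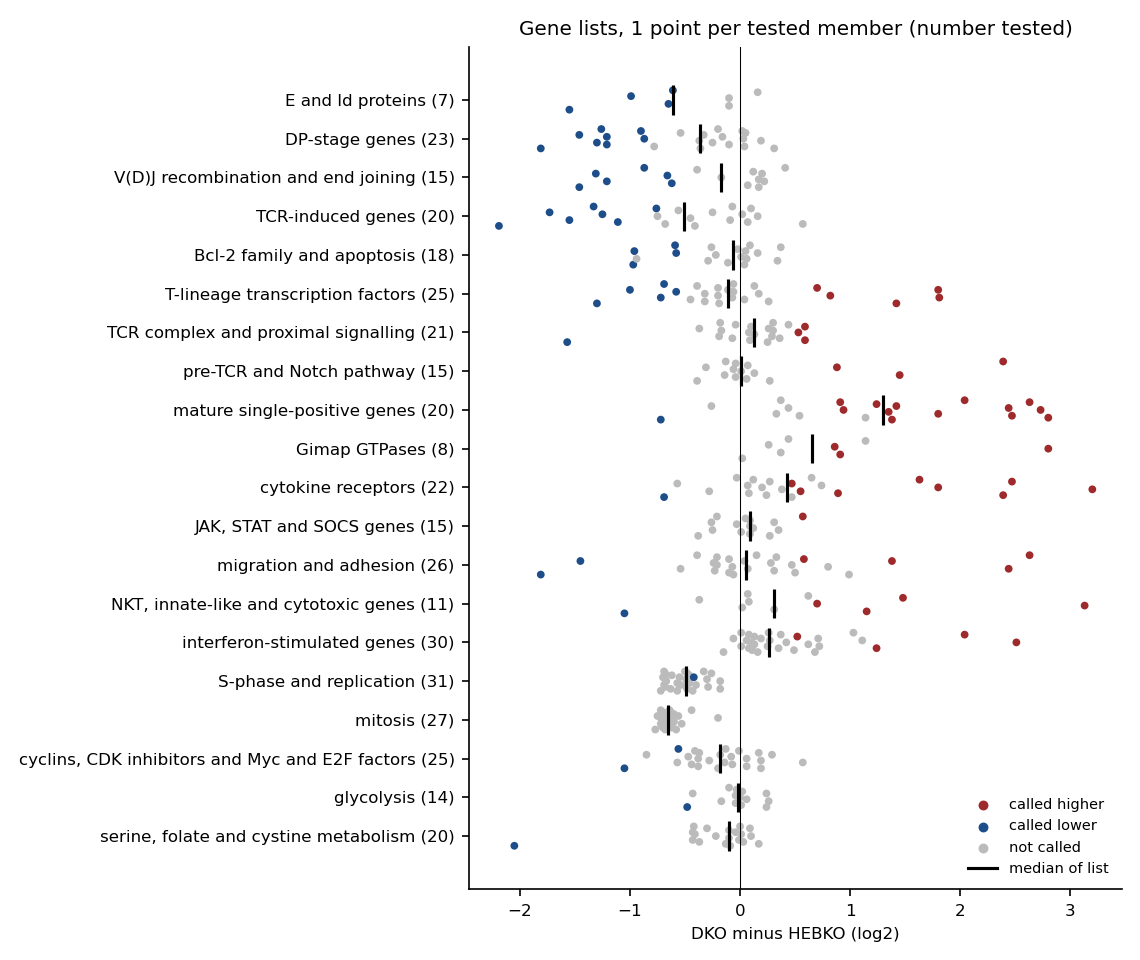
DKO minus HEBKO on the log2 scale for every tested member of 20 gene lists, 1 point per gene, coloured by whether it was called higher, lower or not, with the list's median as a bar. Mature single-positive genes (median 1.30) lie mostly right of 0, and the mitosis (-0.65) and S-phase (-0.49) genes lie left of 0 almost without called members.

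Of 30 interferon-stimulated genes tested, 4 were called higher and 0 lower (13.3%, against 3.63% of all genes), and 3 of the 4 were Schlafen genes. The median was 0.26, 28 of the 30 lay above 0, and 11 had an unadjusted limma p under 0.05, all higher. Over all 13138 genes, 6626 lay above 0 and 1998 had an unadjusted p under 0.05. Slfn5 was 7.96 and 7.60 in HEBKO and 10.25, 10.07 and 10.54 in DKO (2.51 ± 0.23, limma adjusted p = 8.8e-05). Slfn1 was 6.46 and 6.21 in HEBKO and 9.16, 8.13 and 7.85 in DKO (2.04 ± 0.28, adjusted p = 0.00201), and Slfn2 rose by 1.24 ± 0.14 (adjusted p = 0.000475). All DKO values lay above the HEBKO values, and those of Slfn1 in HEBKO were near the 40th percentile (6.07 in HEBKO 1 and 6.03 in HEBKO 2). DKO 1 was the highest array for Slfn1, and the median of the whole list relative to the WT mean was 0.71 in DKO 1 against 0.12 and 0.22 in DKO 2 and 3. Ifit1, a gene of the same response, was 8.08, 6.60 and 6.22 in DKO 1 to 3 and was not called (1.11 ± 0.39). Ddx58, the sensor RIG-I, was the remaining member called (0.52 ± 0.13, limma adjusted p = 0.0424), a call lost without DKO 1 (0.44), DKO 3 (0.52), HEBKO 1 (0.57), HEBKO 2 (0.47), WT 2 or WT 3 (0.52 in each).

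Ifi206, of the family of interferon-inducible DNA-binding genes, was 6.51 and 6.27 in HEBKO and 9.23, 8.40 and 8.63 in DKO (2.36 ± 0.22, limma adjusted p = 9.68e-05). Its HEBKO values too were near the 40th percentile. Samhd1, which hydrolyses nucleotides, was 6.84 and 6.27 in HEBKO and 8.80, 7.95 and 9.53 in DKO (2.20 ± 0.34, adjusted p = 0.00408), and its call was lost without HEBKO 2 (1.92). Other large rises varied less than Samhd1 over the DKO arrays. Card6, with a caspase recruitment domain, was 6.12 and 5.74 in HEBKO, the latter below the 40th percentile, and 8.80, 8.38 and 8.83 in DKO (2.75 ± 0.18, adjusted p = 1.27e-05). Tent5c, a poly(A) polymerase, was 6.82 ± 0.38 in HEBKO (mean and SD, n = 2) and 9.12 ± 0.14 in DKO (n = 3; 2.31 ± 0.16, adjusted p = 1.38e-05), and Elovl6, a fatty acid elongase, was 8.25 and 7.84 against 9.94, 10.13 and 10.25 (2.06 ± 0.14, adjusted p = 1.27e-05).

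Gria3, a glutamate receptor subunit, was 5.64 and 5.52 in HEBKO, both below the 40th percentile, and 8.49, 8.02 and 8.38 in DKO (2.72 ± 0.23, limma adjusted p = 5.56e-05). It was the 1 gene called of 19 ion channels and purinergic receptors (5.26%, against 3.63% of all genes). Kcnma1, a potassium channel, was 5.44 and 5.09 in HEBKO and 12.99, 12.19 and 4.97 in DKO. Its mean difference was the largest of the list (4.78 ± 1.73) but was not called (adjusted p = 0.185), and DKO 3 stayed at the HEBKO level. Without DKO 3 the difference was 7.32 and was called. Of the genes called higher, 14 of 282, and 7 of the 84 that rose at least 2-fold, lay below the 40th percentile in both HEBKO arrays.

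Proliferation genes shifted together while hardly any passed the test. All 27 mitosis genes were lower in DKO, with a median of -0.65, yet 0 were called by limma, while 26 had an unadjusted p under 0.05. All 31 genes of S phase and replication were lower too, with a median of -0.49, 1 called (Rfc5, a clamp loader subunit, -0.42) and 21 at an unadjusted p under 0.05. Over all 13138 genes tested, 6512 lay below 0, 1998 had an unadjusted p under 0.05 and 3.63% were called. The mitosis and S-phase genes move together in any one mouse, so they do not count as separate observations. Taken against the WT mean, the mitosis list had medians of 0.27 and 0.48 in the HEBKO arrays, of -0.17, 0.06 and -0.70 in DKO 1 to 3, of -0.12, 0.23 and -0.09 in WT, and of 0.18 and -0.46 in E2AKO. The E2AKO arrays alone were thus about as far apart as the shift between the groups. Both HEBKO arrays were above each DKO array, DKO 2 lay within the WT range, and DKO 3 was the lowest of the 5. Mki67, the proliferation marker Ki-67, was 12.02 and 12.24 in HEBKO and 11.60, 11.77 and 11.22 in DKO (-0.60 ± 0.18, adjusted p = 0.108).

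Of 25 cyclins, CDK inhibitors and Myc and E2F factors, E2f2 (-1.05 ± 0.19, limma adjusted p = 0.00961) and Mxd3 (-0.56 ± 0.13) were the 2 called, both lower. They were 8% of the list, against 3.63% of all genes. E2f2 lost its call without HEBKO 2 (-0.97). The call of Mxd3 held over none of the 5 arrays left out (-0.48 to -0.60), and neither did that of Rfc5 without DKO 2 (-0.45), DKO 3 (-0.40), HEBKO 1 (-0.38) or HEBKO 2 (-0.46). Both were also lost without WT 3 (-0.56 and -0.42), and Rfc5 without DKO 1 (-0.42). Myc, which drives growth, differed by 0.57 ± 0.22 (adjusted p = 0.225). The 14 glycolysis genes had a median of -0.02 with 1 called (7.14%, against 3.63% of all genes). This was Pfkfb3, a regulator of glycolytic flux (-0.48), whose call was lost without DKO 2 (-0.43), DKO 3 (-0.51), HEBKO 1 (-0.47) or HEBKO 2 (-0.49).

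Markers of other cells were measured beside these groups. Of 4 tested B cell markers 0 were called (0 at an unadjusted p under 0.05). The 9 on the array had a summed log2 level of 9.25 to 9.42 in HEBKO and 9.04 to 9.25 in DKO. Myeloid markers had 0 of 4 called (1 unadjusted), and the 15 on the array summed to 9.71 to 9.81 and 9.62 to 9.74. Those of thymic epithelium and stroma had 0 of 11 called (0 unadjusted), and the 15 on the array summed to 11.22 to 11.27 and 11.34 to 11.37. Erythroid markers had 0 of 3 called (0 unadjusted), and the 4 on the array summed to 8.26 to 8.40 and 8.15 to 8.38. The sums take in genes too dim to be tested, whose signal is near background. Stress and dissociation genes had 0 of 16 called (0 unadjusted) and a median of 0.03. The mature single-positive genes, which are markers of another thymocyte stage, moved with the comparison as given above. The 23 on the array had a summed level of 13.81 to 13.96 in HEBKO and 14.57 to 14.90 in DKO. Whether this came from other cells in the sort was not tested.

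To ask whether E2A loss went with the same difference in cells that kept HEB, DKO minus HEBKO was set beside E2AKO minus WT, which uses none of the same arrays. The 282 genes called higher had a median of 0.74 in DKO minus HEBKO and 0.02 in E2AKO minus WT. The 195 called lower had medians of -0.72 and -0.08. None of the 477 differed by 2-fold in E2AKO minus WT, where 4 of all genes did. The 477 were picked for their difference in DKO minus HEBKO, so smaller values in E2AKO minus WT follow in part from that choice. E2AKO was above WT in 166 (58.9%) of the genes called higher, against 43.5% of all genes, and below WT in 140 (71.8%) of those called lower, against 56.5%.

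The interaction, the difference between these 2 differences, was tested in the same model and called 83 genes (0.632%), 67 of them positive (0.51%) and 16 negative (0.122%). It was positive and called for 67 of the 282 genes called higher, and negative and called for 16 of the 195 called lower. DKO minus HEBKO is itself 1 of the 2 differences in the interaction, so this overlap follows in part from how it is built. The count fell to 54 without WT 2, 50 without WT 3 and 27 without E2AKO 1. Il18r1 differed by -0.20 in E2AKO minus WT and 3.20 in DKO minus HEBKO (interaction 3.40 ± 0.18, limma adjusted p = 3.96e-06). Cd5 differed by -0.24 and -2.19 (interaction -1.95 ± 0.31, adjusted p = 0.0129), F13a1 by 0.03 and -2.13 (adjusted p = 0.000759), and Cd4 by 0.01 and -1.21 (adjusted p = 0.0283). Rag1 (-0.09 and -1.21, adjusted p = 0.101), Rag2 (0.08 and -1.46, adjusted p = 0.0992) and Il7r (0.57 and 2.47, adjusted p = 0.147) were not called in the interaction.

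**Figure D4:**
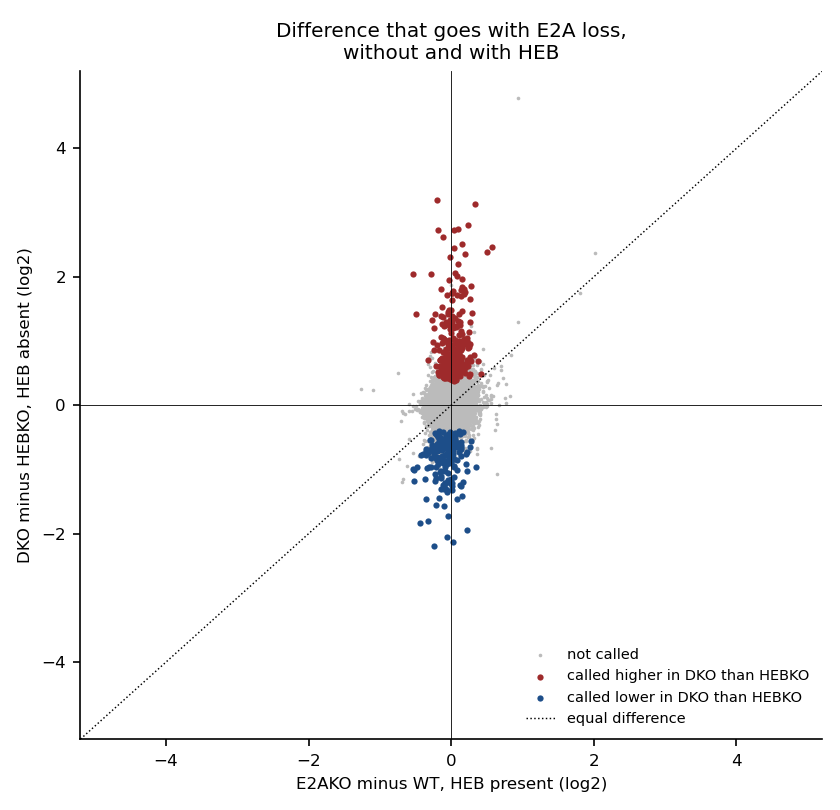
Each of 13138 genes by its log2 difference with E2A loss in the presence of HEB (E2AKO minus WT, x axis) and in its absence (DKO minus HEBKO, y axis). Called genes spread along the vertical axis near 0 on the horizontal one: those called higher have medians of 0.02 on x and 0.74 on y, and those called lower -0.08 and -0.72. Genes were called on y, so their wider spread there follows in part from that choice.

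The genes that differed most between HEBKO and WT were followed into DKO. Both differences use the HEBKO arrays, so their values are given side by side only. Gbp8, a guanylate-binding protein, was -1.17 in HEBKO minus WT and 0.06 in DKO minus HEBKO (95% interval -0.41 to 0.52). Nop10, of the small nucleolar RNA complex, was 0.97 and -0.06 (-0.39 to 0.27), and Cox7b, a subunit of cytochrome c oxidase, 0.95 and 0.05 (-0.31 to 0.41). Myzap (-1.83 and -0.05) and Car2, a carbonic anhydrase (-1.41 and 0.07), lay below the 40th percentile in 2 and 3 DKO arrays, so a further fall would hardly be seen.

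Other genes of this set were called again in DKO. Atp8b4, a phospholipid flippase, was 1.10 in HEBKO minus WT and 1.74 ± 0.14 in DKO minus HEBKO (limma adjusted p = 4.77e-05), Gpr65, a proton-sensing receptor, 1.09 and 1.65 ± 0.19 (adjusted p = 0.000529), and Cpm, a carboxypeptidase, 1.05 and 1.85 ± 0.17 (adjusted p = 8.8e-05). All 3 rose in each step. Fmnl2, a formin, was -1.40 and -1.02 ± 0.18 (adjusted p = 0.00697), though its call was lost without HEBKO 2 (-0.96). Smoc1 (-1.66 and -1.01, adjusted p = 0.0476) lost its call without any 1 of DKO 1 (-1.06), DKO 2 (-0.92), DKO 3 (-1.05), HEBKO 2 (-0.51) or a WT array (-1.01).

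**Figure D5:**
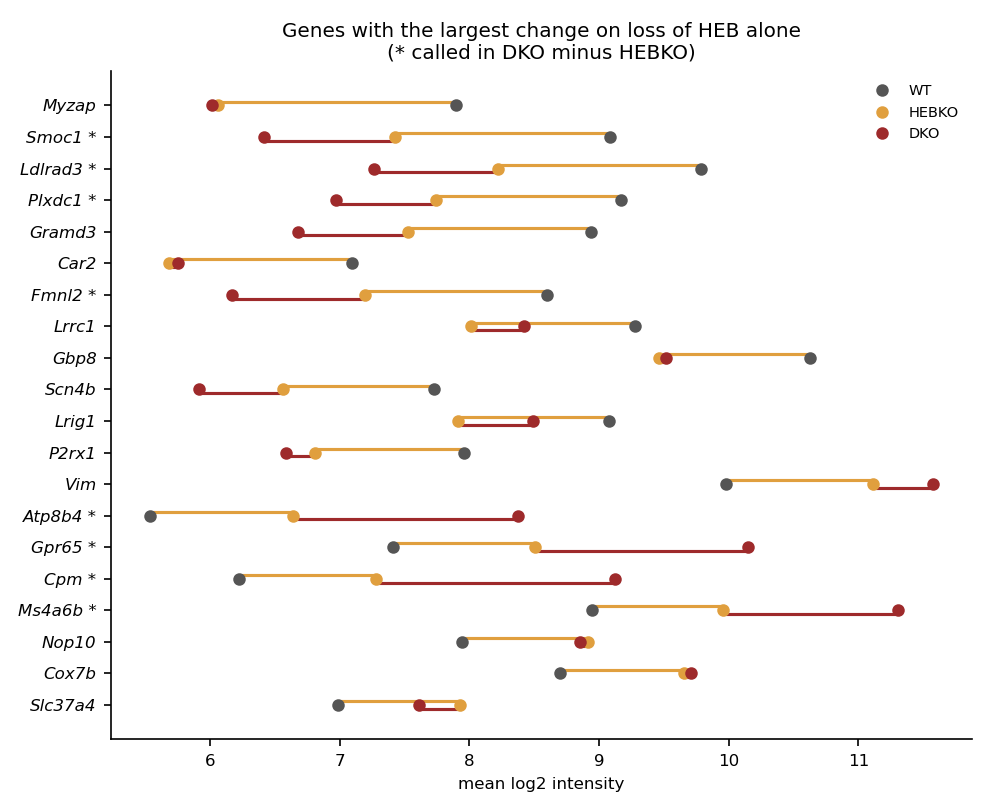
Mean log2 intensity in WT, HEBKO and DKO of the 20 genes named for their difference between HEBKO and WT, with a line for each step and an asterisk where DKO minus HEBKO was called. Myzap, Car2 and Gbp8 have DKO and HEBKO points that nearly coincide (-0.05, 0.07 and 0.06), whereas Atp8b4, Gpr65 and Cpm move further from WT in DKO (1.74, 1.65 and 1.85).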

How the data were processed

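The authors made the deposited intensity values, which are linear, by RMA, per the submitters' processing notes, with no version given. They were turned to log2 without an added constant. RMA evens out the distributions of arrays, so changes are relative to the other genes. A table pairing probe sets with genes gave 1 symbol for 21640 of 34760 probe sets, several for 1321 and none for 11799, and only the first were used, with symbols updated through gene IDs for 21553. Each of 19937 genes was taken at its probe set of highest mean, and tested if it reached the array's 40th percentile in 2 arrays, which left 13138 genes. All 10 arrays entered 1 model (limma 3.58.1, R 4.3.3) with a mean for each genotype, because HEBKO has 2 arrays (residual degrees of freedom 6, prior 5.68, median SD 0.14). Tests are two-sided, with Benjamini-Hochberg adjustment over all genes tested. The number of arrays limits the precision. The labels name biological replicates from individual mice and no batch. The steps were tested on simulated data.

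The comparison, its gene lists and rules were chosen with earlier results of these data known. Lists are described by counts and medians, without a set test. Named genes were the 15 largest rises and the 15 largest falls among those called without overlap of the arrays (clones and predicted genes passed over), up to 4 members of each list by size, a short list named whatever its values, and the 6 largest of each sign in the interaction. Further genes, such as Xrcc6, Egr1, Egr2, Tgfbr2, Gpr65 and those of the HEBKO minus WT set, were chosen after their values were seen. Listed genes without a single-symbol probe set count as not measured. No genome was used. Promoter and miRNA sequences are RefSeq's (GRCm38.p6). Alternatives tried were other filters, normalizations, probe set rules and variance models, array weights, only the compared groups, a replicate block, Xist as a covariate, a 2-fold minimum and leaving out each array.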

Additional observations from a re-analysis of the deposited data

Results flagged for a closer look

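The difference that went with E2A loss was not the same without HEB as with HEB for 83 genes, by the limma interaction test, and the 6 with the largest values of each sign were as follows. Positive values, a higher rise without HEB, were 3.40 for Il18r1, 2.92 for Ms4a4b, 2.80 for Cd226, 2.74 for S1pr1, 2.68 for Gria3 and 2.64 for Card6. Negative values were -2.16 for F13a1, -1.95 for Cd5, -1.49 for Plxnd1, -1.47 for Cd6, -1.28 for Sema7a and -1.26 for Papss2, which makes the sulfate donor of the cell. All are on the log2 scale, and both DKO minus HEBKO and E2AKO minus WT have 2 arrays on one side. Which single genes stay called in the interaction with an array left out was not examined. No group held 4 arrays or more, so no array was tested as an outlier.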

How the results depend on the processing

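The 477 calls (282 higher, 195 lower) ranged from 193 to 499 with 1 array left out (117 to 297 higher, 76 to 212 lower), lowest without HEBKO 2. At a 2-fold minimum 129 remained, 84 higher and 45 lower. The interaction's 83 calls ranged from 27 to 121 with 1 array left out. Same-numbered arrays were not called pairs, since only 2 numbers were shared by HEBKO and DKO, the deviations of these correlated at 0.484 and 0.446, and those of WT 1 and E2AKO 1 at -0.025; the replicate block gave 478 calls and 43 in the interaction. With only the compared groups 360 were called, and with Xist as covariate 427. The genes called were not always the same. Of the 477, 322 were called again with only the compared groups, 407 with Xist, 403 with the replicate block and 223 without DKO 3. Of 167 named genes run, 110 were called, 52 of them in every alternative run and 58 lost in 1 or more, and 13 of the 57 not called passed in 1 or more. The sign turned for 11 genes, none of them called. With 1 array left out they ranged from -0.92 to 0.14 (Cd44), -0.33 to 0.01 (Cd8b1), -0.02 to 0.13 (Cox7b), -0.14 to 0.18 (Gbp8, also -0.05 without HEBKO 2), -0.01 to 0.03 (Mcl1), -0.31 to 0.22 (Myzap), -0.67 to 0.22 (P2rx1), -0.13 to 0.26 (Ptcra), 0 to 0.62 (Tyk2) and -0.09 to 0 (Zap70). Car2 was -0.03 with the replicate block, and Mcl1 was -0.01 with renewed quantile normalization or 1 median and 0 with Xist. List counts under these alternatives were added after seeing the data. The causes were not tested.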

Other observations

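Called genes often lay beside each other in the genome, taking the order of tested genes in RefSeq's GRCm38.p6 table. Of the 281 genes called higher that could be placed, 43 (15.3%) had an adjacent tested gene that was also called higher, against 4.23% of all 13095 placed genes. For the 195 called lower the share was 14.9% (29 genes) against 2.91%. The longest run was of 5 interferon-inducible genes, Ifi206, Ifi214, Ifi213, Ifi209 and Ifi208, which rose by 2.36, 1.83, 1.42, 0.93 and 2.04 (log2), Ifi213 losing its call without HEBKO 1 (1.18). These are close relatives, as are Ms4a4b, Ms4a6c (2.01) and Ms4a6b (1.35), so part of their signal may be shared between probe sets, which was not tested.

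Among other runs, Iftap, Rag2 and Rag1 fell together, as did Gpr162 (-1.13) beside Cd4, and Id3 beside E2f2. Ubac2 (0.51), Gpr18 (1.71) and Gpr183 (1.03) rose together, Ubac2 losing its call without DKO 2 (0.49), DKO 3 (0.46), HEBKO 1 (0.56), HEBKO 2 (0.45) or WT 3 (0.51). Gpr18 and Gpr183 encode receptors of lipid ligands, and the call of Gpr183 was lost without HEBKO 2 (0.92). Ly9 (0.58) and Cd48 (0.77), both receptors of the SLAM family, rose side by side, with both calls lost without HEBKO 2 (0.49 and 0.79) and that of Ly9 also without DKO 3 (0.54).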
